A study of Mus musculus with 4 samples.

Results

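The comparison set 3 mouse neural stem cell cultures that received lipid nanoparticles (LNP) loaded with Cre mRNA against 1 culture that received empty LNP. Cre recombinase cuts out DNA between loxP sites, and each culture carried floxed alleles. The question was which transcripts lay on the same side of the empty LNP control in every Cre-LNP library, whatever the genotype. Of 55487 gene IDs in the deposited table, 9314 reached at least 10 transcripts per 1000000 transcripts (TPM) in at least 1 of the 4 libraries and were examined, and 4392 of them (47.2%) lay on 1 side of the control in all 3 Cre-LNP libraries.

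The cells were primary neural stem cells from the neocortex of mid-gestation embryos, grown with bFGF and EGF. The control was Tut1f/f with empty LNP. The Tut1 KO library was Tut1f/f with Cre-LNP, the Trp53 KO library p53f/f with Cre-LNP, and the double KO library Tut1f/f;p53f/f with Cre-LNP. Each group was 1 library, so no value below has a replicate error, and an exact permutation of 3 against 1 could not go below p = 0.25 one-sided or 0.5 two-sided. Particle cargo was not the only thing that differed: the control had the genotype of the library labelled Tut1 KO only, and every Cre-LNP culture was meant to lose at least 1 gene. Cargo, gene loss and the cultures' origin therefore cannot be told apart in any one gene. A culture of Cre-treated reporter cells, which the study describes as a further control, was not analysed here. All 3 differences also use the same control library, so a single unusual value in it moves all of them together. Where values are given for the Cre-LNP libraries, they follow the order labelled Tut1 KO, Trp53 KO and double KO.

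An LNP is taken up by endocytosis and releases its RNA from the endosome into the cytoplasm, where it is translated. RNA made outside the cell can be seen by sensors such as Rigi and Ifih1, which switch on interferon-stimulated genes, and the lipids are handled by lysosomal and sterol pathways. Loss of p53, the protein of Trp53, lowers the transcription of its targets, and Tut1 adds uridines to the U6 small nuclear RNA of the spliceosome.

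The labels were examined first. Trp53 stood at 119.9 TPM in the control and at 100.4, 39.7 and 41.9 TPM in the Cre-LNP libraries, so it was low in both libraries with the floxed p53 allele. Tut1 stood at 12.2 TPM in the control and at 29.8, 12.5 and 13.7 TPM in the Cre-LNP libraries, and was thus highest in the library labelled Tut1 KO. The study describes the deletion of a single exon, which a value for the whole gene does not separate. It reports efficient deletion in Tut1f/f neural stem cells given Cre-LNP, measured on that exon by qPCR or long reads. The values here cannot show the deletion. Directions drawn from the library labelled Tut1 KO, and the Tut1 part of the double KO label, therefore rest on the labels and that report. No value for Cre mRNA was analysed here. Neural stem cell markers were abundant in all 4 libraries: Sox2 ranged from 293 to 385 TPM and Fabp7 from 7902 to 9441 TPM. The microglial, endothelial, fibroblast and erythroid markers had no member at 1 TPM. The control and the double KO library held Y-linked transcripts whereas Xist was found in the library labelled Tut1 KO (188 TPM) and in the Trp53 KO library (204 TPM), so sex-linked transcripts differed across the comparison.

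At any size, 1632 genes (17.5% of those examined) were higher in all 3 Cre-LNP libraries and 2760 (29.6%) were lower. This balance depended on scaling. Higher genes made up 37.2% of those on 1 side, and 50.5% after the median difference of each Cre-LNP library was set to 0, 49.3% after quantile normalization and 52.1% after differences tied to GC content and transcript length were removed. The median difference in log2(TPM + 1) over all genes was -0.09 in the library labelled Tut1 KO, -0.05 in Trp53 KO and -0.003 in double KO. By at least 1.5-fold in every Cre-LNP library, 87 genes (0.934%) were higher and 99 (1.06%) lower. A log2(TPM + 1) difference of at least 1 in every Cre-LNP library was reached by 43 higher genes (0.462%) and 45 lower genes (0.483%), the 88 genes described below. The smallest of a gene's 3 differences is called its gap. Over all genes, the median range of the 3 Cre-LNP libraries was 0.33, and the gap exceeded a gene's own range in 388 higher and 553 lower genes. This held for 40 of the 43 and 38 of the 45, as a gap of at least 1 makes likely.

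**Figure D1:**
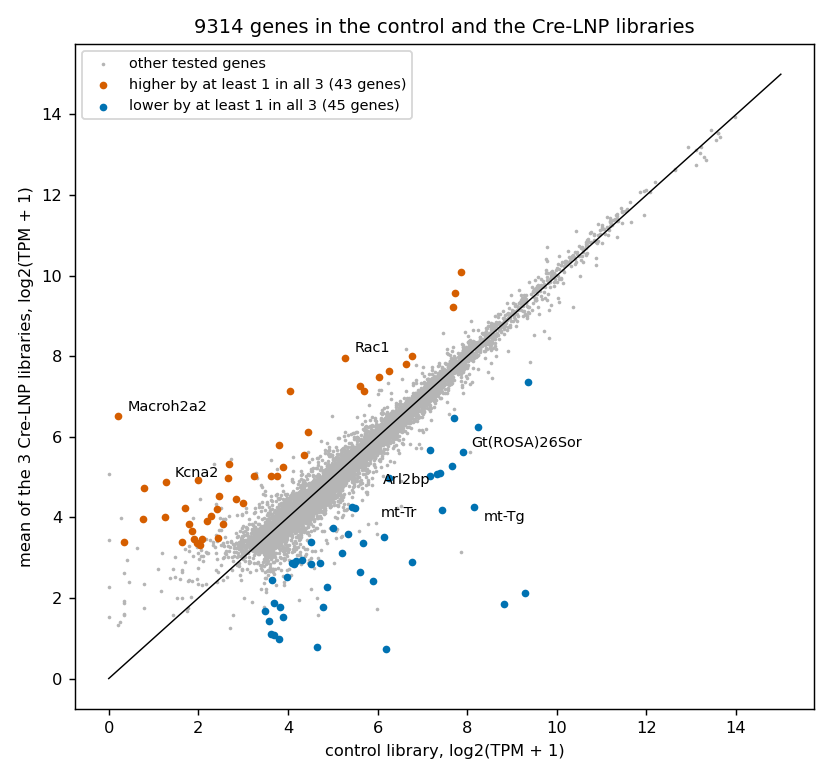
Level of 9314 genes as log2(TPM + 1) in the control library (horizontal axis) and as the mean of the 3 Cre-LNP libraries (vertical axis), with the line of equality. Orange points are the 43 genes higher by at least 1 in all 3 Cre-LNP libraries and blue points the 45 lower; most other genes lie close to the line.

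The gene with the widest gap was Macroh2a2 (chromosome 10, GRCm38 61738665 to 61784147), which encodes a macroH2A histone variant of condensed chromatin. It stood at 0.16 TPM in the control and at 92.1, 84.1 and 95.2 TPM in the Cre-LNP libraries, a gap of 6.20 with a range of 0.18 among the Cre-LNP libraries. The control was thus close to 0 and the 3 Cre-LNP libraries were close to each other, although their genotypes differed. The gene overlaps Aifm2 on the opposite strand, and whether counting used strand is not given in the sources used here. Its paralogue Macroh2a1, looked up after these values were seen, stood at 259 TPM in the control and at 226, 226 and 251 TPM in the Cre-LNP libraries, a gap of only -0.05.

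Rac1, a small GTPase of actin remodelling, stood at 37.8 TPM in the control and at 234, 248 and 263 TPM in the Cre-LNP libraries. The lowest Cre-LNP library was thus 6.19-fold above the control, and the spread among them was small (range 0.17). Septin8, a filament-forming GTPase, stood at 20.7 TPM in the control and at 67.4, 70.6 and 68.3 TPM in the Cre-LNP libraries, the narrowest range among the 15 leading higher genes (0.06). Apc, the scaffold that marks beta-catenin for destruction in Wnt signalling, stood at 2.99 TPM in the control and at 30.1, 37.3 and 22.9 TPM in the Cre-LNP libraries. Arl15, an ADP-ribosylation-factor-like GTPase, had a gap of 1.61.

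Kcna2, a voltage-gated potassium channel subunit, stood at 1.41 TPM in the control and at 22.8, 26.7 and 36.9 TPM in the Cre-LNP libraries. Hrh1, the histamine H1 receptor, was less even, with 0.70 TPM in the control and 19.0, 27.5 and 5.66 TPM in the Cre-LNP libraries. Its Cre-LNP range (2.10) was wider than its gap (1.97). Of the neuronal marker list, 0 of 6 examined members were above the control in all 3 Cre-LNP libraries and 2 (33.3%) were below. Of all genes, 17.5% were above and 29.6% below, so the share below was near that of all genes.

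Get1, a receptor for the insertion of tail-anchored proteins into the endoplasmic reticulum, stood at 5.47 TPM in the control and at 40.0, 35.8 and 41.2 TPM in the Cre-LNP libraries. Pcyt1a, the regulated enzyme of phosphatidylcholine synthesis, stood at 5.31 TPM in the control and at 27.2, 31.4 and 33.3 TPM in the Cre-LNP libraries. Slc39a9, a zinc transporter, stood at 2.26 TPM in the control and at 17.0, 16.8 and 19.3 TPM in the Cre-LNP libraries. In all of these the Cre-LNP libraries lay close together. Ipmk, an inositol phosphate kinase, had a gap of 1.89. The transcription-linked genes Zbtb33 (Kaiso, a methyl-CpG-binding repressor on the X chromosome) and Rprd1b (a binder of the RNA polymerase II tail) had gaps of 2.47 and 1.66. Macir, a regulator of macrophage inflammation, had a gap of 1.58.

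**Figure D2:**
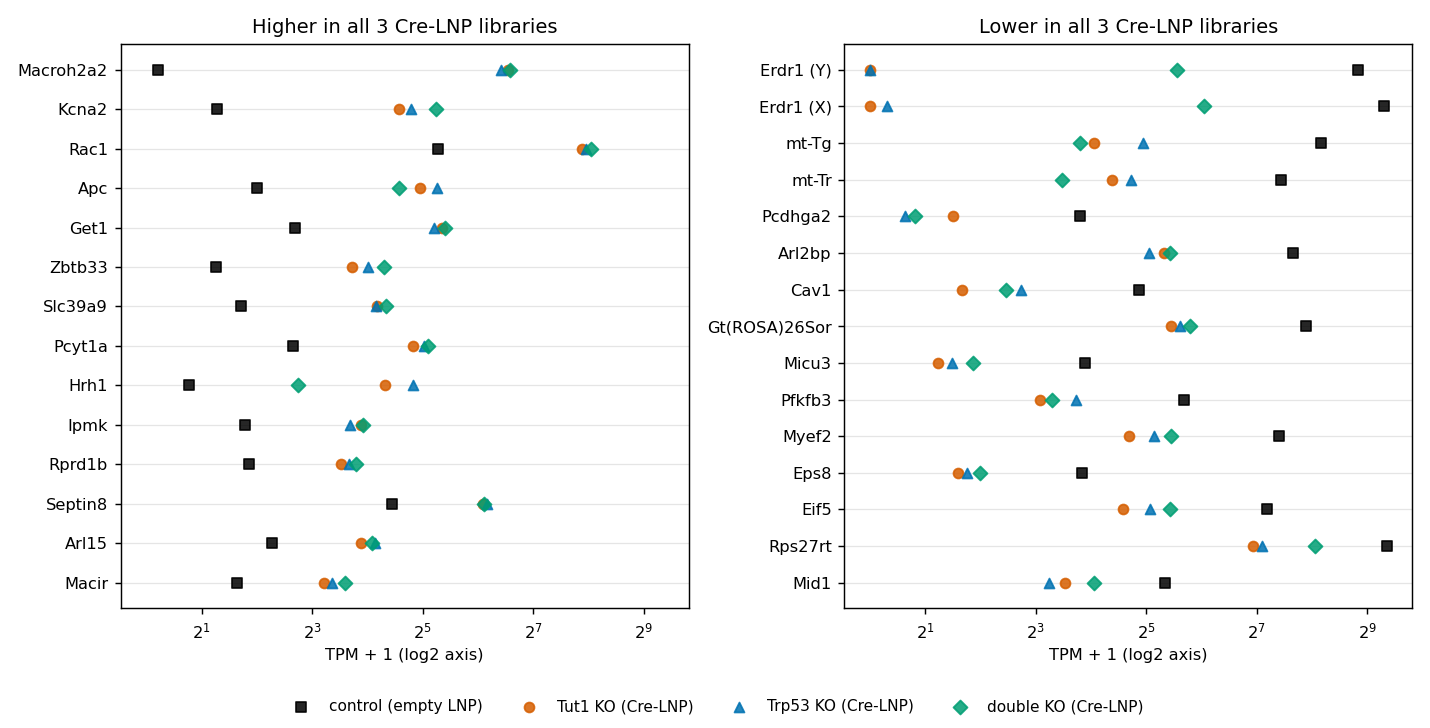
TPM + 1 on a log2 axis in each of the 4 libraries for 14 higher (left) and 15 lower (right) genes with the widest gaps. Black squares are the control and coloured symbols the Cre-LNP libraries; in every row the control lies outside them, and Hrh1 and the Erdr1 rows have the most scattered Cre-LNP libraries. The 2 Erdr1 rows are separate gene IDs on the X and Y chromosomes.

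Among the lower genes, Gt(ROSA)26Sor, the noncoding transcript of the Rosa26 locus that is widely used for transgenes, stood at 238 TPM in the control and at 42.7, 48.0 and 54.1 TPM in the Cre-LNP libraries. The highest Cre-LNP library was thus 4.39-fold below the control. Thumpd3, the neighbour on the opposite strand whose value was looked up afterwards, stood at 41.5 TPM in the control and at 39.8, 42.4 and 43.1 TPM in the Cre-LNP libraries, with no shared side.

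Arl2bp, a binding partner of the small GTPase Arl2, stood at 201 TPM in the control and at 39.2, 32.0 and 42.1 TPM in the Cre-LNP libraries. Myef2, a nucleic acid-binding repressor of myelin genes, stood at 167 TPM in the control and at 24.6, 34.3 and 42.7 TPM in the Cre-LNP libraries. In both, the control lay well above every Cre-LNP library. Eif5, a factor for start codon selection in translation, stood at 144 TPM in the control and at 22.8, 32.7 and 41.8 TPM in the Cre-LNP libraries, but it shares exon bases with a small nucleolar RNA gene and its value is uncertain.

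Cav1, the main protein of caveolae, stood at 28.1 TPM in the control and at 2.15, 5.66 and 4.47 TPM in the Cre-LNP libraries. Pfkfb3, which makes the fructose-2,6-bisphosphate that drives glycolysis, stood at 50.3 TPM in the control and at 7.46, 12.2 and 8.81 TPM in the Cre-LNP libraries. It was the only member of the hypoxia and glycolysis list below the control in all 3 (1 of 24, with 3 above it, or 4.2% and 12.5% against 29.6% and 17.5% of all genes). Micu3, a regulator of the mitochondrial calcium uniporter, stood at 13.9 TPM in the control and at 1.34, 1.81 and 2.63 TPM in the Cre-LNP libraries. Eps8, an actin regulator downstream of the EGF receptor, had a gap of -1.84, and the apoptosome-associated Uaca one of -1.18. The chromatin reader Pwwp2a and the acetyltransferase Naa50 had gaps of -1.28 and -1.16. Mid1, a microtubule-associated ubiquitin ligase on the X chromosome, had a gap of -1.29 and overlaps antisense noncoding genes. Pcdhga2, a protocadherin with a gap of -2.30, shares exons with the rest of its gene cluster, so its value is uncertain.

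Erdr1, a gene from the list of strain-variable genes (4 of 9, 44.4%, below the control in all 3 and 1 above, against 29.6% and 17.5% of all genes), had 2 IDs. The ID on X stood at 629 TPM in the control and at 0, 0.24 and 64.9 TPM in the Cre-LNP libraries, and the ID on Y at 455 TPM and at 0, 0 and 46.2 TPM. Eif2s3y, on Y, stood at 62.0 TPM in the control and at 0, 0 and 34.9 TPM in the Cre-LNP libraries. The values at or near 0 were those of the libraries that lacked Y-linked transcripts. In the double KO library, which held them, Erdr1 was still 9.69-fold (X) and 9.84-fold (Y) below the control, and Eif2s3y 1.78-fold. The X and Y copies of Erdr1 may share reads, and both IDs are counted among the 4 of 9 list members below the control. Entpd4, of the same list, had a gap of -0.62. Of the 88 genes, 40 higher and 37 lower were autosomal (0.861% of 8943 examined), 2 higher and 5 lower were on X (2.16% of 324), 1 lower was on Y (of 6) and 2 lower were mitochondrial (of 32), while 1 was not in the annotation.

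The mitochondrial genome is transcribed into long precursors from which transfer RNAs (tRNAs) are cut out, and its mRNAs encode subunits of the respiratory chain. The lower genes included 2 of its tRNAs, mt-Tg for glycine and mt-Tr for arginine, both encoded on the plus strand with mt-Nd3 between them. Their genes are given here from GENCODE (GRCm38, chrM:9391-9458 and chrM:9808-9875, 68 bases each, DNA letters 5′ to 3′) because they show how short the features behind these values are. The anticodon is in capitals.
mt-Tg: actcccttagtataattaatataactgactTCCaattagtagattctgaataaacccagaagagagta
mt-Tr: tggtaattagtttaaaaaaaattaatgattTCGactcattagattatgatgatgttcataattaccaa

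The level of mt-Tg was 284 TPM in the control and 15.6, 29.9 and 12.9 TPM in the Cre-LNP libraries. That of mt-Tr was 172 TPM in the control and 19.7, 25.4 and 10.1 TPM in the Cre-LNP libraries. The control was at least 6.79-fold above every Cre-LNP library for both. The mRNAs beside them, which encode subunits of complex I, were lower to a smaller extent: mt-Nd3 stood at 1888 TPM in the control and at 1218, 1317 and 1144 TPM in the Cre-LNP libraries. For mt-Nd4l the values were 1051 TPM in the control and 500.4, 731 and 747 TPM in the Cre-LNP libraries. These 4 genes follow one another over 783 bases of the genome. Next to them mt-Co3 stood at 6379.6 TPM in the control and at 6674, 6149.8 and 6212 TPM in the Cre-LNP libraries, with no shared side. On the other flank mt-Nd4 had a gap of -0.23. Outside the stretch the tRNA mt-Tl1 stood at 906 TPM in the control and at 561, 482 and 655 TPM in the Cre-LNP libraries, a mean difference of -0.69, close to that of mt-Nd4l.

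**Figure D3:**
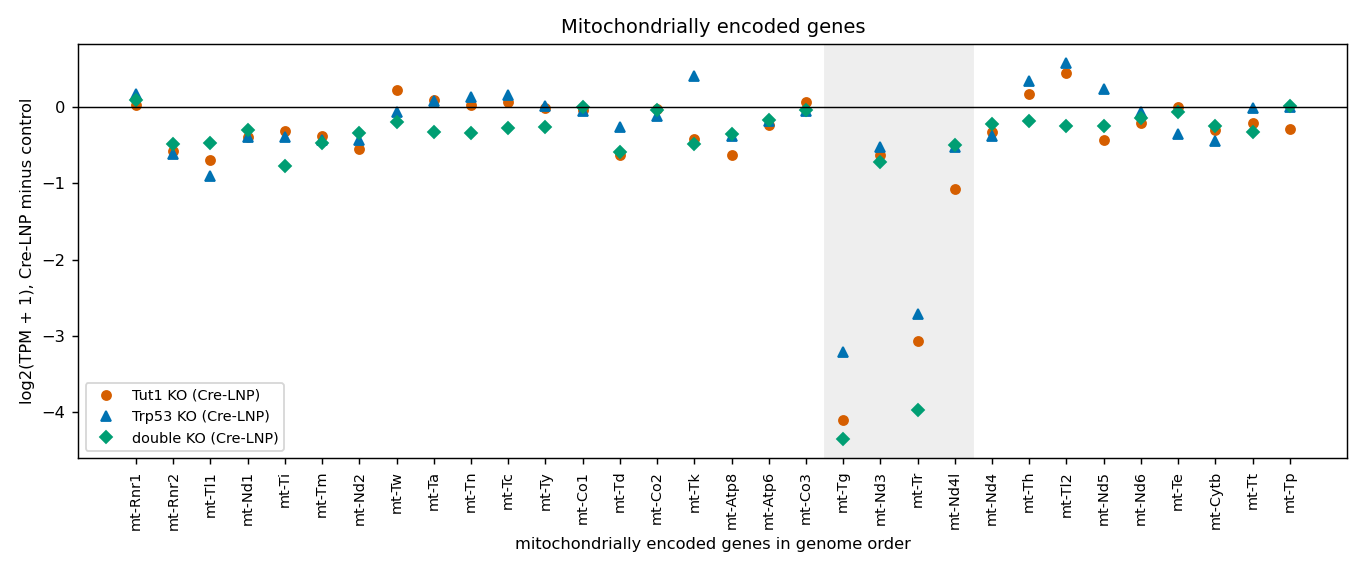
Difference from the control in log2(TPM + 1) for the 32 mitochondrially encoded genes with at least 10 TPM in some library, in genome order, in each Cre-LNP library. The shaded stretch from mt-Tg to mt-Nd4l holds the 4 adjacent genes described in the text, with mt-Tg and mt-Tr lowest in all 3 libraries.

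Over the mitochondrial mRNAs and rRNAs, 12 of 15 were below the control in all 3 Cre-LNP libraries and 1, the small ribosomal RNA mt-Rnr1, was above, against 29.6% and 17.5% of all genes. Their median difference was -0.31 (all genes, -0.05), and -0.09 with the GC and length correction, under which 7 (46.7%) were below and 4 (26.7%) above, against 21.8% and 23.7% of all genes. The large ribosomal RNA mt-Rnr2 stood at 782 TPM in the control and at 525, 509 and 558 TPM in the Cre-LNP libraries. The mRNAs of cytochrome oxidase were nearest to the control, with gaps of -0.003 for mt-Co1 and -0.02 for mt-Co2. The 15 together took 91962 of 1000000 TPM in the control and 78072, 78955 and 81600 in the Cre-LNP libraries. Of 17 tRNAs examined, 7 (41.2%) were below the control in all 3 and 0 above, with a median difference of -0.14. With the GC and length correction the median turned to 0.13, and 4 (23.5%) were below and 8 (47.1%) above.

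Ribosomal protein mRNAs went the other way. Of 81 examined, 50 (61.7%) were above the control in all 3 Cre-LNP libraries and 3 (3.7%) below, against 17.5% and 29.6% of all genes, with a median difference of 0.15. The median was 0.20 with medians set to 0, 0.05 with quantile normalization (28 above and 6 below, with 22.7% and 23.4% of all genes) and 0.11 with the GC and length correction. By library, the medians were 0.23, 0.13 and 0.08. Rps27 had the widest gap and stood at 1370 TPM in the control and at 2509.7, 2185 and 1958 TPM in the Cre-LNP libraries. Summed with its near-identical copy Rps27rt, its differences were 0.38, 0.20 and 0.14. Rpl37 stood at 883 TPM in the control and at 1455, 1257 and 1261 TPM in the Cre-LNP libraries. Its copy Rpl37rt lay on the other side, and their sum was below the control, with differences of -0.05, -0.27 and -0.28. The direction of a member can therefore depend on how reads of copies were divided. No member reached 1.5-fold in all 3. Small nucleolar RNA host genes, whose introns carry guides for ribosomal RNA modification, had 5 of 14 (35.7%) above and 1 below. The small nucleolar and nuclear RNAs had 8 of 30 (26.7%) above and 3 below. Both lists are to be read against the 17.5% above and 29.6% below of all genes. The small RNAs above were led by Snord83b (4.38 TPM in the control and 10.3, 9.80 and 10.9 TPM in the Cre-LNP libraries), which reached 10 TPM only in Cre-LNP libraries. Snora68, Snord15b and Rpph1 (gaps of 0.70, 0.79 and 0.79) and, on the other side, Snord57 (-2.49) share exon bases with other genes.

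Splicing regulators of the SR and hnRNP families, which choose among splice sites, lay mostly below the control: 18 of 32 (56.2%, against 29.6% of all genes) were below in all 3 Cre-LNP libraries and 1, Srsf9, above. The median difference was -0.15, and -0.03 with the GC and length correction, under which 10 (31.2%) were below and 3 (9.4%) above, against 21.8% and 23.7% of all genes. Hnrnpu, a nuclear scaffold protein that binds RNA, was the single member past 1.5-fold, at 904 TPM in the control and at 499, 287 and 304 TPM in the Cre-LNP libraries. Members close to the control made up most of the count, such as Srsf5, Hnrnpl and Hnrnpa1 with gaps of -0.01 each. A list of proteins of the U6 particle and its Lsm ring also held other splicing proteins, such as Prpf8 and Snrnp200. This list did not lie mostly below, with 9 of 26 (34.6%) above and 5 (19.2%) below, against 17.5% and 29.6% of all genes. Lsm4, a protein of the ring and one of the members above, stood at 245 TPM in the control and at 339, 260.5 and 270.5 TPM in the Cre-LNP libraries.

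**Figure D4:**
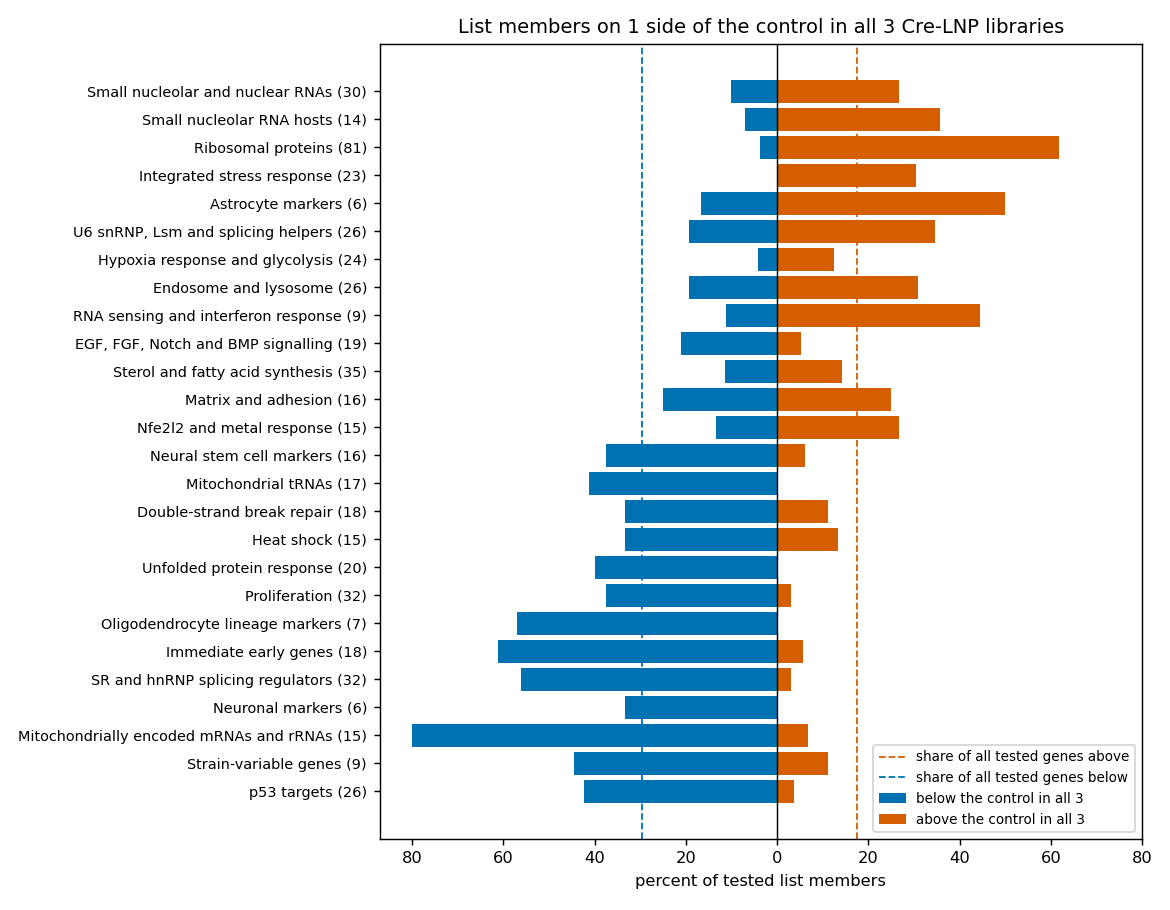
Percent of examined list members below (blue, left) or above (orange, right) the control in all 3 Cre-LNP libraries, for lists with at least 6 examined members (number in brackets). Lists are ordered by the median difference of members with at least 1 TPM. Dashed lines give the same shares over all 9314 genes (29.6% below, 17.5% above); ribosomal proteins extend farthest to the right and mitochondrial mRNAs and rRNAs farthest to the left.

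Lists that bear on the handling of particles and foreign RNA are given next. Of 54 genes listed for RNA sensing and the interferon response, only 9 reached 10 TPM, of which 4 (44.4%) were above the control in all 3 Cre-LNP libraries and 1 (11.1%) below, against 17.5% and 29.6% of all genes. Bst2, an interferon-stimulated antiviral protein, stood at 9.32 TPM in the control and at 11.8, 14.6 and 13.8 TPM in the Cre-LNP libraries. It counts among the 4, but it reached 10 TPM only in the Cre-LNP libraries. Over the 31 list members with at least 1 TPM the median difference was -0.01 (all genes with at least 1 TPM, -0.05). Cxcl10, an interferon-induced chemokine, stayed under 10 TPM with 0.71 TPM in the control and 2.16, 3.63 and 6.42 TPM in the Cre-LNP libraries. The guanylate-binding protein Gbp3 was on the other side, with 8.38 TPM in the control and 3.48, 3.12 and 3.35 TPM in the Cre-LNP libraries. Isg15 was at most 1.53 TPM in any library.

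Endosome and lysosome genes had 8 of 26 (30.8%) above the control and 5 (19.2%) below, against 17.5% and 29.6% of all genes. With the GC and length correction 12 were above and 2 below, against 23.7% and 21.8% of all genes under that correction. The lysosomal proteases and lipid-handling proteins Ctsz, Ctsd, Hexa and Psap were among those above, with gaps from 0.11 to 0.33, whereas the early and recycling endosome GTPases Rab5a and Rab11a were below, with gaps of -0.08 and -0.09. Sterol and fatty acid synthesis genes had 5 of 35 above and 4 below, both under the shares of all genes. Mt1 and Mt2, metallothioneins that bind zinc and copper, were both higher: Mt1 stood at 670 TPM in the control and at 1017, 947 and 814 TPM in the Cre-LNP libraries. Mt2 stood at 187 TPM in the control and at 298, 239.6 and 272 TPM in the Cre-LNP libraries. Both come from the members above the control, and Mt3 of the same list is not given here. Of the whole list for Nfe2l2 and the metal response, 4 of 15 were above and 2 below.

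Stress programmes did not move as one. Of 23 integrated stress response genes, 7 (30.4%) were above the control in all 3 Cre-LNP libraries and 0 below, against 17.5% and 29.6% of all genes. Yet the list medians were -0.12 in the library labelled Tut1 KO and 0.23 and 0.17 in the other 2. Nupr1, a stress-induced chromatin protein, stood at 2.23 TPM in the control and at 4.55, 11.2 and 10.9 TPM in the Cre-LNP libraries. It counts among the 7, but it reached 10 TPM only in Cre-LNP libraries. Cebpb, under 10 TPM, had a gap of 0.63. Ddit3, which encodes the transcription factor CHOP, stood at 31.8 TPM in the control and at 41.6, 44.4 and 40.5 TPM in the Cre-LNP libraries. In the unfolded protein response, 8 of 20 (40.0%, against 29.6% of all genes) were below and 0 above, among them the chaperone Hspa5 with a gap of -0.17. Heat shock genes had 5 of 15 (33.3%) below and 2 above, near the shares of all genes.

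Immediate early genes, which growth factors switch on through ERK signalling, had 11 of 18 (61.1%) below the control in all 3 Cre-LNP libraries and 1 above, against 29.6% and 17.5% of all genes, with library medians of -0.13, -0.12 and -0.13. Dusp6, an ERK phosphatase, stood at 123 TPM in the control and at 90.3, 106 and 102 TPM in the Cre-LNP libraries. Spry4, an inhibitor of the same pathway, stood at 117 TPM in the control and at 86.6, 107 and 96.3 TPM in the Cre-LNP libraries. Both were picked from the members below the control. Klf2, under 10 TPM, had a gap of 0.60 on the other side. Receptors and targets of EGF, FGF, Notch and BMP signalling had 4 of 19 (21.1%) below and 1 above.

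**Figure D5:**
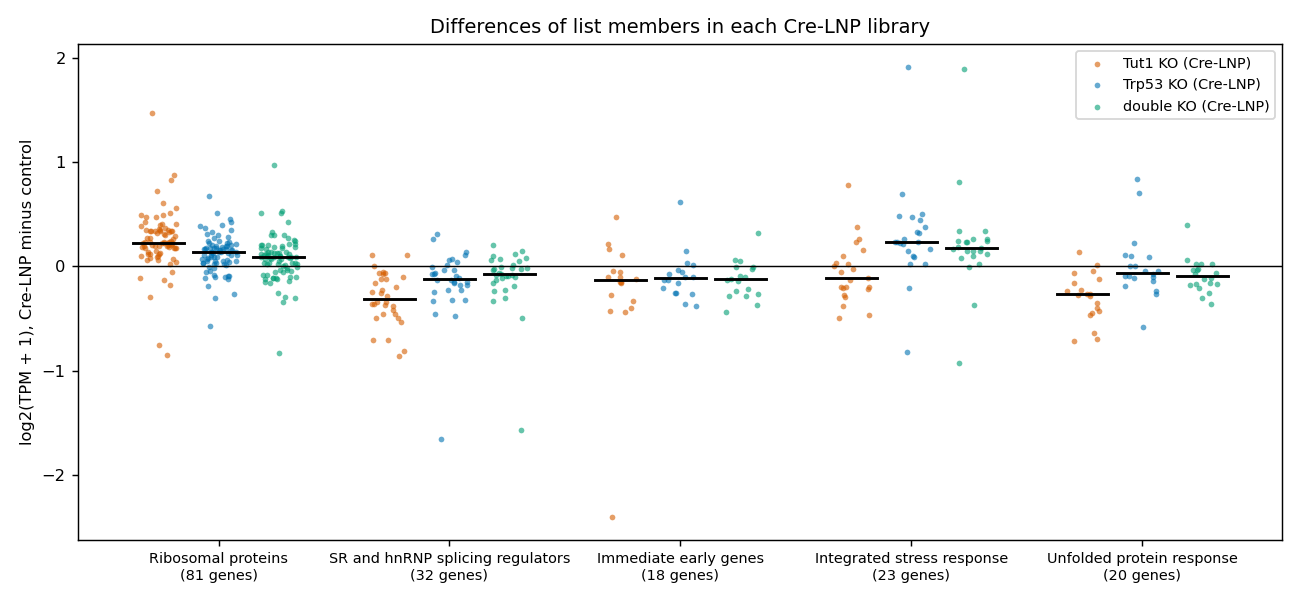
Difference from the control in log2(TPM + 1) for each examined member of 5 gene lists, by Cre-LNP library; points are genes and black bars the medians. Ribosomal protein medians are above 0 (0.23, 0.13 and 0.08) and SR and hnRNP medians below 0 in all 3 libraries, while the integrated stress response is below 0 in the library labelled Tut1 KO only.

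Proliferation genes had 12 of 32 (37.5%) below the control in all 3 Cre-LNP libraries and 1 above, against 29.6% and 17.5% of all genes. With medians set to 0, 28.1% were below, and with the GC and length correction 25.0%, against a share of all genes that also shifted, to 23.3% and 21.8%. The list medians were -0.28 in the library labelled Tut1 KO and -0.01 in each of the other 2, so the size of the difference lay in 1 library. Ccnb1, the mitotic cyclin B1, stood at 185 TPM in the control and at 92.0, 114 and 145 TPM in the Cre-LNP libraries. Ccnd1, cyclin D1 of the G1 phase, stood at 632 TPM in the control and at 519.9, 523 and 508 TPM in the Cre-LNP libraries. Double-strand break repair genes had 6 of 18 (33.3%) below and 2 above, near the shares of all genes. Of the p53 targets, 11 of 26 (42.3%) were below in all 3 and 1 above. With the GC and length correction 5 (19.2%) were below, against 21.8% of all genes. Polk, a translesion polymerase, stood at 11.6 TPM in the control and at 3.35, 6.39 and 6.80 TPM in the Cre-LNP libraries, lowest in the library in which Trp53 was not floxed. Dglucy stood at 20.3 TPM in the control and at 12.6, 9.52 and 7.75 TPM in the Cre-LNP libraries. The list medians were 0.02, -0.85 and -0.71.

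Counts for the marker lists are small and are to be read against the shares of all genes, 29.6% below and 17.5% above. Neural stem cell markers had 6 of 16 (37.5%) below the control in all 3 Cre-LNP libraries and 1 above. Nes, the intermediate filament nestin, stood at 417 TPM in the control and at 392, 337 and 313 TPM in the Cre-LNP libraries. Oligodendrocyte lineage markers had 4 of 7 (57.1%) below and 0 above, with Olig1 at 1029 TPM in the control and at 942, 895 and 920.5 TPM in the Cre-LNP libraries. Astrocyte markers had 3 of 6 (50.0%) above and 1 below, with Sparcl1, a secreted matrix protein, at 92.8 TPM in the control and at 139, 254 and 142 TPM in the Cre-LNP libraries. In bulk RNA, fewer cells of a type and less RNA per cell cannot be told apart. Matrix and adhesion genes had 4 of 16 (25.0%) above and 4 below, and the collagen Col4a1, under 10 TPM, had a gap of 0.68. Replication-dependent histones had 0 of 5 on either side, and H4c2, under 10 TPM, had a gap of -0.78.

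Copies of other genes were frequent among the 88. Pseudogenes made up 6.44% of the genes examined, and 8 higher and 14 lower ones were called (3.67%), against 0.684% of protein-coding genes. Eno1b, a copy of the enolase gene Eno1, stood at 211 TPM in the control and at 574, 744 and 1035 TPM in the Cre-LNP libraries. Added to Eno1 it came to 2827 TPM in the control and to 2551, 3409.7 and 2532 TPM in the Cre-LNP libraries. Rps27rt stood at 652 TPM in the control and at 121, 135 and 264 TPM in the Cre-LNP libraries, while its source Rps27 was on the other side. Their sum came to 2022 TPM in the control and to 2631, 2320.2 and 2222 TPM in the Cre-LNP libraries. Scp2-ps2 summed with Scp2 stayed lower, with differences of -0.74, -0.42 and -0.53. The sum of Rps19-ps6 and Rps19 had no shared side, with differences of 0.18, -0.06 and -0.26. Most called pseudogenes were not summed with a source gene, and how reads were divided between near-identical genes was not tested. Among protein-coding genes the higher group had a median transcript GC content of 47.9% and the lower group 44.9%, against 49.7% for all, with median transcript lengths of 4159, 4050.0 and 3307 bases.

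The protein-coding genes next to the threshold of 1 were Ppip5k2 (1.02) and Cdc42bpa (-1.02) inside it and Gria4 (0.99) and Tmem254a (-0.94) outside. Counts of called genes rested on all 3 Cre-LNP libraries: without the library labelled Tut1 KO there were 82 higher and 87 lower, without Trp53 KO 59 and 78, and without double KO 73 and 75. When the 3 Cre-LNP libraries were taken as replicates in limma, with the lone control assumed to vary like them, 3 genes (Macroh2a2, Rac1 and Get1) were higher at an adjusted p under 0.05 (0.0322%) and 0 lower. At an unadjusted p under 0.05 there were 135 higher and 151 lower. The 3 libraries differ in genotype and are not replicates of a condition, and the fit draws on the same gaps and ranges as above, so it adds no independent evidence.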

How the data were processed

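The deposited table held 1 column per library in transcripts per 1000000 transcripts (TPM), made by the authors; the submitters' processing notes name Trimmomatic, HISAT2, StringTie and mm10. Short-read stranded mRNA preparation is given in the labels and long reads in the series text, so the platform is unclear, and how reads of copies were divided is not given in the sources used here. TPM keeps no depth, so no counting interval was computed. Genes with at least 10 TPM in at least 1 library were compared as log2(TPM + 1), which understates changes of low genes. Named were Tut1, Trp53, the 15 higher and 15 lower known genes with the widest gaps, the 10 of each among autosomal protein-coding genes, list members past 1.5-fold (up to 5 a list), and list members with a defining role. Of the 15 higher genes, 1 is not reported here. Genes and 32 gene lists were chosen with earlier results of these data known, so no list is independent support. Lists were described over members with at least 10 TPM. Positions and sequences came from GENCODE M21 (GRCm38), in which 9310 of 9314 genes were found. The code was tested on simulated data. Python 3.11.15, pandas 2.3.3, R 4.3.3 and limma 3.58.1 were used. The alternatives were other pseudocounts, TPM minimums, scalings and thresholds, leaving out each library, and limma. The sum of copies and source genes was chosen after seeing the data.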

Additional observations from a re-analysis of the deposited data

How the results depend on the processing

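Depth is unknown and each group is 1 library, so no alternative replaces replication. No paired analysis was possible because each group has 1 library and the labels carry no replicate numbers. Genes higher and lower at any size numbered 2767 and 4508 with a TPM minimum of 1, and 4317 and 7683 with no minimum. Genes lower by at least 1 numbered 88 with either, since more genes were examined. A minimum of 10 TPM in all 4 libraries left 17 higher and 15 lower, a 1.5-fold threshold gave 87 and 99, and limma 3 and 0. Keeping only protein-coding genes on autosomes that share no exon left 18 lower. Leaving out 1 Cre-LNP library gave 2127 to 2511 higher and 3478 to 4054 lower at any size, and 59 to 82 higher and 75 to 87 lower by at least 1, since fewer conditions had to be met. The other counts stayed within 1.5 times. Of 37 named genes with a gap of at least 1, 30 kept it under every alternative that could be applied to them, and none changed sign. A pseudocount of 5 took Hrh1, Macir, Snord83b, Gbp3, Uaca, an ID of Nnt and Snord57 below 1. Gbp3 was also below 1 in size with medians set to 0 (-0.97) and with quantile normalization (-0.95), and Snord83b with the GC and length correction (0.68). Of 383 list medians recomputed (members with at least 1 TPM), 28 changed sign, in 8 of 28 lists, each with a median of at most 0.0948 in size. The lists were RNA sensing, endosome and lysosome, sterol, Nfe2l2 and metal, hypoxia, matrix, EGF to BMP signalling, and the mitochondrial tRNAs. The last was the only one with 1 sign in all 3 libraries, and turned to 0.13 with the GC and length correction. The sterol list reached 0.12 without the library labelled Tut1 KO and the hypoxia list -0.10 without Trp53 KO. The causes were not tested.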

Other observations

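Further genes past a difference of 1 in all 3 Cre-LNP libraries were picked after their values were seen. Prdx6, a peroxiredoxin that reduces lipid peroxides, stood at 109 TPM in the control and at 249, 263 and 259.9 TPM in the Cre-LNP libraries. Gpx3, a secreted glutathione peroxidase, stood at 19.4 TPM in the control and at 53.7, 41.2 and 43.2 TPM in the Cre-LNP libraries. Qdpr, which regenerates tetrahydrobiopterin, stood at 64.5 TPM in the control and at 147, 185 and 203 TPM in the Cre-LNP libraries. In each of these the control was the lowest of the 4 libraries. Ywhaq, a 14-3-3 adaptor protein, stood at 206 TPM in the control and at 540.0, 612 and 626 TPM in the Cre-LNP libraries.

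On the lower side, Atp2b1, a plasma membrane calcium pump, stood at 18.8 TPM in the control and at 5.08, 7.15 and 8.29 TPM in the Cre-LNP libraries. Utrn, the dystrophin relative utrophin, stood at 10.9 TPM in the control and at 0.92, 4.47 and 0.89 TPM in the Cre-LNP libraries. A second ID of Nnt, a mitochondrial transhydrogenase, stood at 4.57 TPM in the control and was listed at 0 in all 3 Cre-LNP libraries. The IDs share exons, and the first stood at 6.32 TPM in the control and at 20.3, 7.06 and 26.2 TPM in the Cre-LNP libraries.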
